A study of Mus musculus with 2 samples.

Results

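The nuclear-encoded genes of the mitochondrial respiratory chain and ATP synthase were examined in mouse epidermis from mice whose keratinocytes were to lose 2 receptors, called DKO, and from littermate control mice, called CON. Vdr encodes the vitamin D receptor (VDR), and Casr encodes the receptor that senses extracellular calcium (CaSR). Members were the probes whose array symbol begins with Nduf, Uqcr or Atp5, or with Cox and a digit, or is Sdha, Sdhb, Sdhc, Sdhd or Cycs. The rule took 95 of 25697 probes, which carried 79 symbols of the 17871 genes in the table. Of these, 70 encode structural subunits of complexes I to V, 1 is Cycs, and 8 are assembly factors or other genes with a matching name. No probe carried the symbol Sdha, the flavoprotein of complex II, which was therefore not analysed here.

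Both groups were C57BL6 mice at postnatal day 5 with floxed alleles of both receptor genes (VDR fl/fl CaSR fl/fl). DKO mice also carried Cre driven by the keratin 14 promoter, which is active in basal keratinocytes and the outer root sheath. The deletion passes on to the cells that arise from these, while cells of other lineages in the epidermal sheet keep both genes. RNA of back-skin epidermis, separated from dermis with dispase, was combined from 3 mice per group, and each combined sample was run on 1 Illumina array. The protocol mentions VDR alone at 1 point, whereas titles and genotypes give both receptors, and these were followed. A single array stood for each group, so replicate spread is unknown, no test between groups was possible, and every difference below is a value of this pair of combined samples.

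The respiratory chain passes electrons along the inner mitochondrial membrane. Complex I takes them from NADH and complex II from succinate, and both hand them to ubiquinone. Complex III passes them on to cytochrome c, complex IV reduces oxygen with them, and complex V makes ATP from the proton gradient that complexes I, III and IV build up. Most subunits are encoded in the nucleus, while the catalytic core of complexes III and IV and the membrane core of complex I are partly or wholly encoded in mitochondrial DNA. The mitochondrially encoded subunits were not analysed here. In epidermis, mitochondria are most abundant in the living layers and are removed as keratinocytes cornify.

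Values are normalized signals on the log2 scale, and differences are DKO minus CON. Detection was read from the scanner's p-value, which sets a probe against negative-control beads on the same array, with 0.01 as the limit. Where a gene had several probes, the brightest stood for it. Signals of different probes depend on the probe, so levels of different genes were not compared, and signal served only to group genes by brightness. Of the 79 symbols, 72 were detected on at least 1 array and 68 on both. The 7 not detected on either array were the complex I subunit genes Ndufs1 and Ndufab1, the Rieske iron-sulfur protein gene Uqcrfs1, Cox4i2, Cox8b, Cox8c and the ATP synthase gene Atp5k, and no fold is given for them. Sdhd and Cycs passed only through CON, and Cox6a2 and Cox11 only through DKO. Sdhd, Cox6a2 and Cox11 therefore had to differ in the direction in which they passed. For Cycs this was nearly so, since its CON value of 5.35 lay just below the lowest detected DKO signal of 5.38.

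The arrays had 10441 detected probes on DKO (40.6%) and 10760 on CON (41.9%), with median raw signals of 138 and 140.5. The 3 Vdr probes differed by -0.82, -0.24 and -0.12, and Casr did not pass detection in DKO or in CON, so these probes do not settle the labels. The keratinocyte markers Krt1, Krt5, Krt10 and Krt14 were detected on both arrays, and Krt1 read 13.33 in DKO and 12.69 in CON while the other 3 differed by 0.00 to 0.04. All 4 detected melanocyte markers of 5 were lower in DKO, with a median of -0.38, and all 3 detected Langerhans cell and macrophage markers of 4 were higher, with a median of 0.47. The 5 markers of the hair shaft and inner root sheath, Krt31, Krt33a, Krt71, Krt73 and Krt86, were all lower in DKO, with summed linear signals of 6425 in DKO and 20521 in CON. The Y-linked gene Ddx3y read 10.31 in DKO and 6.89 in CON by its brightest probe. Since combined tissue was measured, fewer cells of a type and less RNA per cell cannot be told apart, and the part of cell content or sex composition in any difference below was not tested.

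Transcripts of the respiratory chain subunits differed little between the 2 arrays. Of 63 detected structural subunits, 35 were higher in DKO, 26 were lower and 2 had equal values, with a median difference of 0.01. None was at least 1.5-fold higher and none at least 1.5-fold lower, counted, as for all genes here, on measured values, also where 1 array was at background. Over all 8472 detected genes, 6.08% were at least 1.5-fold higher in DKO and 7.38% at least 1.5-fold lower, 1.06% and 1.38% passed 2-fold, and 47.1% were higher and 52.6% lower by any amount, with a median of -0.02. The subunit differences ran from -0.43 for Sdhd to 0.47 for Cox6a2, each of which was above background on 1 array only, and the remaining subunits lay between -0.39 and 0.34. All 63 lay within the central 95% of all detected genes, which spanned -0.84 to 0.80.

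Bright genes differ less between arrays than dim ones, and 47 of the 63 subunits fell among the brightest 25% of detected genes, where the shares at 1.5-fold were 3.59% higher and 3.49% lower, the shares at 2-fold were 0.85% higher and 0.897% lower, and 48.3% were higher and 51% lower by any amount. The SD of the differences was 0.20 over the subunits, 0.35 over the brightest 25% and 0.42 over all detected genes. Between probes of the same gene that were detected on both arrays, the difference varied with a pooled SD of 0.245 over 1767 genes, and of 0.126 over the 10 members with such probes. Among the brightest 25%, 39 of 47 subunits (83.0%) lay within 0.245 of 0, against 1324 of 2118 genes (62.5%). Over all 63 subunits the share within that size was 71.4%, against 51.5% of all detected genes. Genes of nuclear-encoded mitochondrial ribosomal proteins had a similar share, 51 of 68 (75%), and none at 1.5-fold, so small differences were not limited to the respiratory chain.

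The direction counts rest on the scaling. Median scaling in place of quantile normalization put 25 subunits higher and 38 lower, with a subunit median of -0.07. The share higher was 39.7%, against 55.6% in the main values. That share fell likewise from 47.1% to 35.6% over all detected genes, and from 48.3% to 33.7% over the brightest 25%. Median scaling moved the median of all detected genes to -0.13 and that of the brightest 25% to -0.12. The subunits thus lay 0.05 above the brightest 25% under median scaling and 0.02 above it in the main values. Under both scalings 0 subunits reached 1.5-fold.

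**Figure D1:**
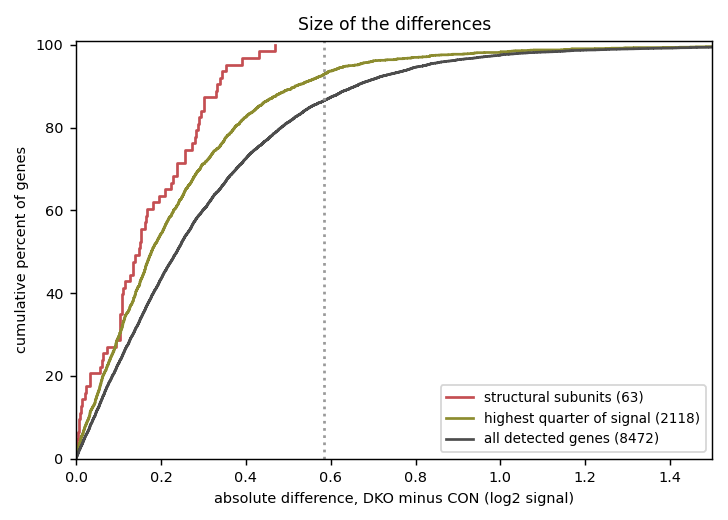
Cumulative percent of genes (vertical axis) by absolute DKO minus CON difference (horizontal axis, log2 signal) for the 63 detected structural subunits, the 2118 detected genes in the brightest 25% and all 8472 detected genes. The dotted line marks 1.5-fold, which 0 subunits reached, and the subunit curve reaches 100% at 0.47.

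Complex I, the NADH dehydrogenase, had 31 subunit symbols in the table and 29 detected, of which 16 were higher and 13 lower, with a median of 0.01. Ndufb6 and Ndufb9 were among the highest. Ndufb6, an accessory subunit of the membrane arm, read 7.89 in DKO and 7.55 in CON, 1.27-fold higher. Ndufb9, also in the membrane arm, read 7.73 in DKO and 7.40 in CON. Both were higher in DKO by similar amounts, and the accessory subunits Ndufb4, Ndufa3, Ndufa7 and Ndufb5 followed at 0.26 to 0.30.

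The lowest complex I genes were Ndufv1, Ndufb2 and Ndufv2. Ndufv1, which binds FMN and NADH and so receives the electrons, read 11.58 in DKO and 11.87 in CON, 1.23-fold lower. Ndufv2, its iron-sulfur partner, read 11.96 in DKO and 12.19 in CON, 1.17-fold lower. Ndufb2, an accessory membrane subunit with a dim probe, read 6.01 in DKO and 6.30 in CON. The other lower genes lay between -0.19 for Ndufa10 and -0.01 for Ndufs3.

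Among the 6 detected core subunits of complex I, which carry the redox centres and the quinone site, 2 were higher and 4 lower, with a median of -0.05. Ndufs7, which holds the last iron-sulfur cluster before ubiquinone, differed by 0.14, Ndufs3 by -0.01 and Ndufs8 by -0.10. Of the 23 detected accessory subunits, 14 were higher and 9 lower, with a median of 0.06 and a range of -0.29 to 0.34, and the core genes with values given here lie within that range to 2 decimals. Ndufs4, whose loss in mice causes a Leigh-like disease, had 4 detected probes that differed by 0.06 to 0.31. Ndufa4, first described in complex I and later placed in complex IV, differed by -0.03. Ndufa1 is X-linked and differed by -0.02.

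**Figure D2:**
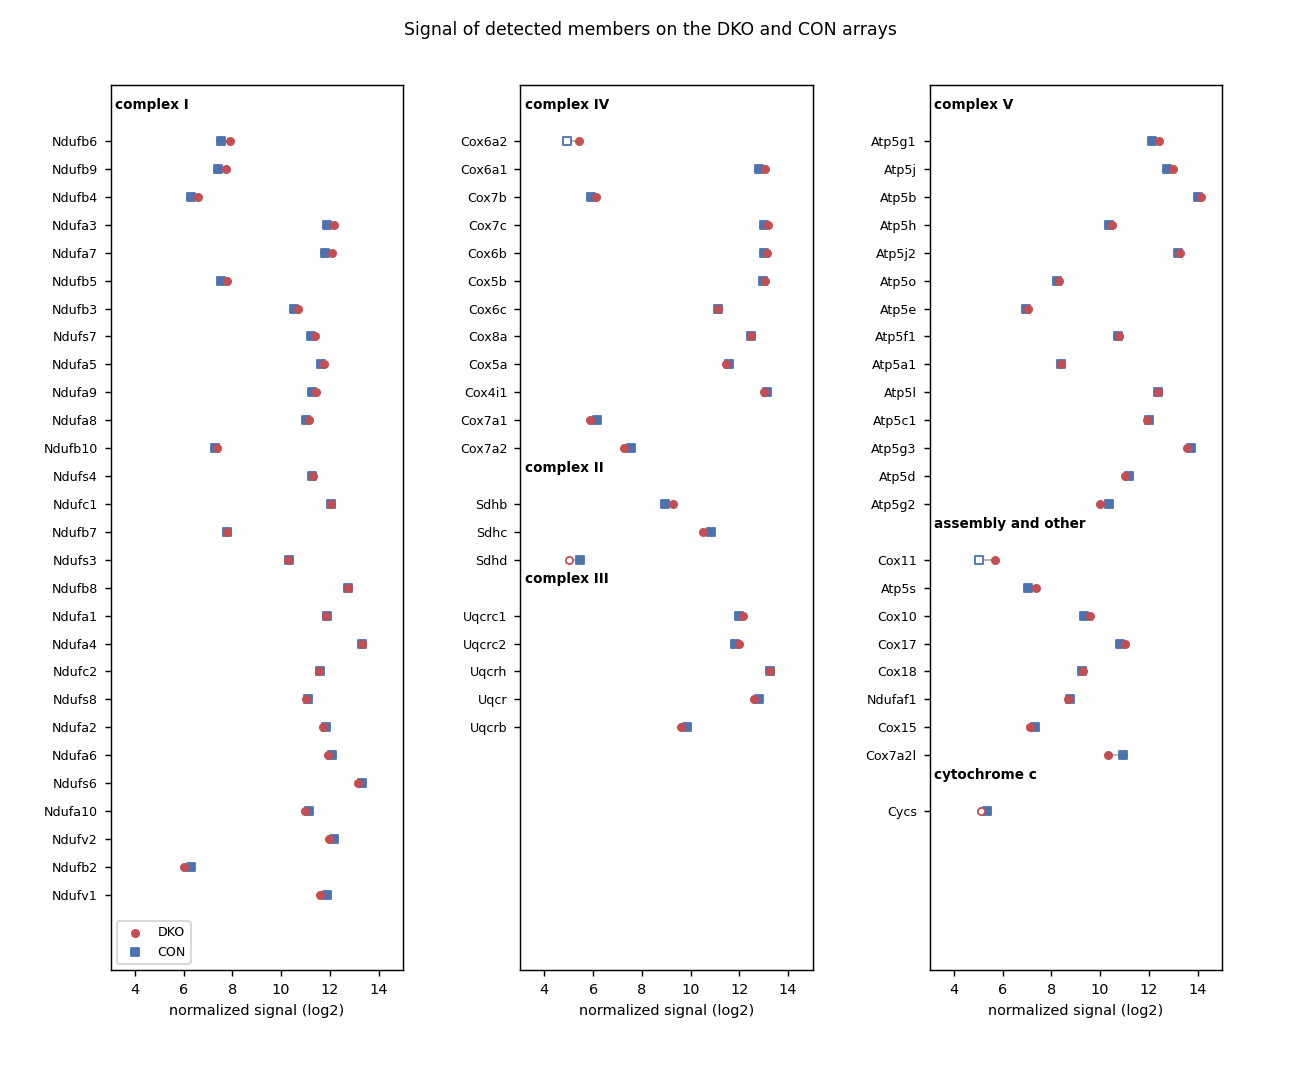
Normalized signal (horizontal axis, log2) of detected members on the DKO array (red circles) and the CON array (blue squares), grouped by complex and ordered by difference. Open symbols were not above background on that array, and in most rows the symbols touch, the widest gaps being those of Cox11, Cox7a2l, Cox6a2 and Sdhd.

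Complex II, succinate dehydrogenase, links the citric acid cycle to the chain, and its 3 measured subunits did not move together. Sdhb, the iron-sulfur subunit, read 9.29 in DKO and 8.96 in CON, 1.26-fold higher, and its second detected probe differed by 0.11. Sdhc, a membrane anchor, read 10.50 in DKO and 10.85 in CON, 1.28-fold lower. Sdhd, the other anchor, read 5.03 in DKO, not above background, and 5.46 in CON, at least 1.06-fold lower. The median of the 3 was -0.35. It rests on dim Sdhd, and over the 2 genes detected on both arrays the median was -0.01.

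Sdhb and Sdhd encode subunits of 1 enzyme. Sdhb was higher in DKO, while Sdhd passed detection through CON only, which fixed its direction. Promoter sequences of both are shown. They are the 250 bases before the annotated start in RefSeq (GRCm38.p6), 5′ to 3′ on the gene's strand, at chr4:140961021-140961270 (plus strand) for Sdhb and chr9:50603850-50604099 (minus strand) for Sdhd. Capitals mark matches on either strand to the motifs named NRF-1, ETS, YY1 and Sp1, which are described further on.
Sdhb: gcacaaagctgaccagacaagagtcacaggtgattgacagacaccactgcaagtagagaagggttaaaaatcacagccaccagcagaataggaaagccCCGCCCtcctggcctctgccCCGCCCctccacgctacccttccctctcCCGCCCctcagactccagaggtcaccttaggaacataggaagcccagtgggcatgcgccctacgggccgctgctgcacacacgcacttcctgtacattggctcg
Sdhd: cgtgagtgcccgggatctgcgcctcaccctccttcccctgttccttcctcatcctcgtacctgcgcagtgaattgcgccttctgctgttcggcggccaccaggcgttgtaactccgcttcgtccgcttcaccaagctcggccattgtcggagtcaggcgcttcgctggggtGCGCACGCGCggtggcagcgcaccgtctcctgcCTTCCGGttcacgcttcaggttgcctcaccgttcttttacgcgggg
The shown stretch held 3 Sp1 matches in Sdhb, and 1 NRF-1 and 1 ETS match in Sdhd. The search described further on also covered bases after the start, which are not shown. With these included, Sdhb also had an ETS match and Sdhd an Sp1 match, so both genes held ETS and Sp1 matches. A match describes letters only, and nothing about binding follows from it.

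Complex III, the cytochrome bc1 complex, had 5 detected subunits of 6, with 2 higher, 2 lower and 1 equal, and a median of 0.00. The core proteins of its matrix side were both slightly higher. Uqcrc1 read 12.14 in DKO and 11.98 in CON, and Uqcrc2 read 11.98 in DKO and 11.81 in CON, differences of 0.17 and 0.16. The hinge protein gene Uqcrh read 13.26 on both arrays. Uqcrb, a small subunit near the quinone site, read 9.62 in DKO and 9.86 in CON, 1.18-fold lower. Uqcr, now named Uqcr11 and the smallest subunit, read 12.60 in DKO and 12.81 in CON, 1.16-fold lower. All 5 lay within 0.245 of 0, as did 51.5% of all detected genes and 62.5% of the brightest 25%. Cyc1, the cytochrome c1 subunit, lies outside the rule and read 10.76 in DKO and 10.50 in CON, a difference of 0.26.

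Cycs, somatic cytochrome c, carries electrons between complexes III and IV. Its brighter probe read 5.12 in DKO, not above background, and 5.35 in CON, just above it. No bound on the fold could be given, since both values lay at or near the floor of detection.

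Complex IV, cytochrome c oxidase, had 15 subunit symbols and 12 detected, with 7 higher and 5 lower and a median of 0.05. The 10 broadly expressed forms were all detected on both arrays, 6 higher and 4 lower, between -0.30 and 0.27. Cox6a1 read 13.07 in DKO and 12.80 in CON, 1.21-fold higher, and its other probe gave 0.25. Cox7b, an X-linked subunit gene with a dim probe, read 6.13 in DKO and 5.90 in CON. Cox7a2 read 7.25 in DKO and 7.55 in CON, 1.23-fold lower, and Cox4i1, a regulatory subunit, read 13.01 in DKO and 13.13 in CON. Cox7c differed by 0.15, Cox6b (now Cox6b1) by 0.11, Cox5b by 0.10, Cox6c and Cox8a by 0.00, and Cox5a by -0.11. Cox7a2 thus lay lowest and Cox6a1 highest among the broad forms.

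Several complex IV subunits have a second form for heart and skeletal muscle or another tissue. Of the 5 such symbols, Cox4i2 (lung), Cox8b (heart and muscle) and Cox8c (testis) were not detected. The muscle form Cox6a2 read 5.42 in DKO and 4.95 in CON, where it was not above background, at least 1.10-fold higher. The muscle form Cox7a1 read 5.88 in DKO and 6.17 in CON, 1.22-fold lower, close in size to its broad partner Cox7a2. Of 7 skeletal muscle markers in the table, Mylpf was detected on both arrays (6.92 in DKO, 6.48 in CON), Myh8 on DKO only and Mb on CON only, and Acta1, Ckm, Actn2 and Tnnt3 on neither. The summed linear signal of the 7 was 290 in DKO and 247 in CON, and the part of muscle in the Cox6a2 value was not tested.

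**Figure D3:**
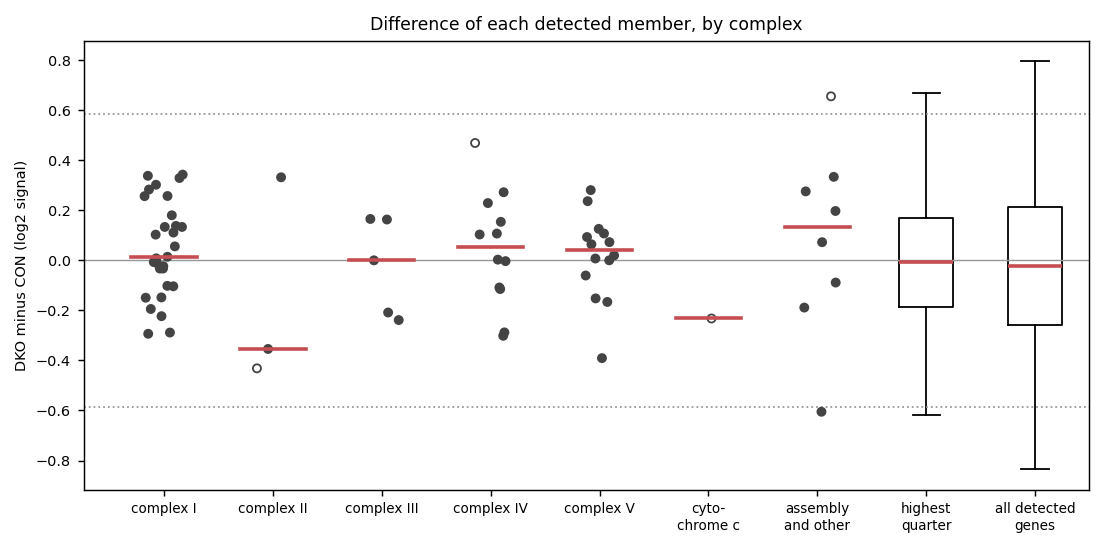
DKO minus CON difference (vertical axis, log2 signal) of each detected member by complex, with red lines at the medians, and boxes for the brightest 25% and for all detected genes (quartiles, whiskers to the central 95%). Open points were above background on 1 array only, dotted lines mark 1.5-fold, and the medians of complexes I, III, IV and V lie between 0.00 and 0.05 while that of the 3 genes of complex II lies at -0.35.

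Complex V, ATP synthase, had 14 detected subunits of 15, with 9 higher, 4 lower and 1 equal, and a median of 0.04. The 5 genes of F1, the catalytic head and central stalk, stayed within -0.17 and 0.13. Atp5b, the catalytic beta subunit, read 14.13 in DKO and 14.01 in CON, a difference of 0.13, Atp5a1, the alpha subunit, differed by 0.01, and Atp5d, the delta subunit, read 11.02 in DKO and 11.19 in CON, a difference of -0.17. The 9 detected genes of the membrane part and the peripheral stalk ranged more widely, from -0.39 to 0.28, with a median of 0.07. Atp5j, coupling factor 6 of the peripheral stalk, read 12.98 in DKO and 12.74 in CON, and its second detected probe went the other way at -0.10.

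The widest contrast within complex V lay among Atp5g1, Atp5g2 and Atp5g3, separate genes that encode the same mature c subunit of the proton-driven ring behind different import peptides. Atp5g1 read 12.41 in DKO and 12.13 in CON, 1.21-fold higher. Atp5g2 read 9.98 in DKO and 10.37 in CON, 1.31-fold lower. Atp5g3 read 13.57 in DKO and 13.72 in CON, 1.11-fold lower. Each gene had 1 probe, so no second measurement of these differences exists on the arrays. The sign of each held under every alternative processing tried, with ranges of 0.18 to 0.28 for Atp5g1, -0.52 to -0.34 for Atp5g2 and -0.17 to -0.15 for Atp5g3.

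The promoters of Atp5g1 and Atp5g2 are shown because these genes share their protein product and differed in opposite directions. They lie at chr11:96075632-96075881 (minus strand) and chr15:102671048-102671297 (minus strand) in RefSeq (GRCm38.p6), drawn and marked as above.
Atp5g1: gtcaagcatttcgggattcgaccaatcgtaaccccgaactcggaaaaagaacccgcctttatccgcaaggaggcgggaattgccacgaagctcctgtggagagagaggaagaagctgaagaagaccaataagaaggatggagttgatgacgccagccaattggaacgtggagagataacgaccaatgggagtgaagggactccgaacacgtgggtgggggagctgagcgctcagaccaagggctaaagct
Atp5g2: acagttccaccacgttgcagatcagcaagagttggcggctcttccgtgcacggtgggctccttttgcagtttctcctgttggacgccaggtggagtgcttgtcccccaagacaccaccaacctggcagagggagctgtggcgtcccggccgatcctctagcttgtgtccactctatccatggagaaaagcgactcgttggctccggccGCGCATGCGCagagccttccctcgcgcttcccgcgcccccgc
Atp5g1 held none of the motifs in this stretch, and Atp5g2 held 1 site that matches NRF-1 on both strands. With the searched bases after the start included, Atp5g2 also had an Sp1 match, and Atp5g1 still had no match.

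The 8 members that are no structural subunit were all detected, 5 higher and 3 lower, with a median of 0.13. They include Cox7a2l, the only member past 1.5-fold with both arrays above background. They also include Cox11, which passed that size only by a measured value at background in CON. Of all detected genes 7.38% were at least 1.5-fold lower in DKO, and of the brightest 25% of them 3.49%. The Cox7a2l difference of -0.61 lay within the central 95% of both sets, whose low ends were -0.84 and -0.62. Cox7a2l, a relative of Cox7a2 that joins complexes III and IV into supercomplexes, read 10.33 in DKO and 10.94 in CON, 1.52-fold lower, with 1 probe. Its raw signals, before any normalization, were 1320.8 in DKO and 2187.8 in CON. C57BL6 mice are known to carry a shortened allele of this gene, which both groups share as their labelled strain. The difference ran from -0.72 to -0.53 over the alternatives, and so fell below 1.5-fold in some. Cox11, a copper chaperone of complex IV, read 5.69 in DKO and 5.04 in CON, where it was not above background, and the bound is at least 1.33-fold higher.

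Other genes of complex IV assembly lay closer together. Cox10, which makes the heme O precursor of heme A, read 9.60 in DKO and 9.33 in CON, 1.21-fold higher. Cox15, which acts in the next step to heme A, read 7.13 in DKO and 7.32 in CON. The copper carrier Cox17 differed by 0.20 and Cox18, which helps insert a mitochondrially encoded subunit, by 0.07. Ndufaf1, an assembly factor of complex I, read 8.67 in DKO and 8.76 in CON. Atp5s, now named Dmac2l, read 7.39 in DKO and 7.05 in CON, 1.26-fold higher.

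The upstream sequence of Cox7a2l, the only member detected on both arrays that passed 1.5-fold, lies at chr17:83514334-83514583 (minus strand) in RefSeq (GRCm38.p6).
Cox7a2l: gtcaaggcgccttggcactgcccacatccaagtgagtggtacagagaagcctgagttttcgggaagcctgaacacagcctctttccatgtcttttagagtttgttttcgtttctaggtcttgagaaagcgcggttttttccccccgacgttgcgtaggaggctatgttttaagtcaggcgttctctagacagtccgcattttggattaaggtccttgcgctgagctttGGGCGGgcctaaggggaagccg
The shown stretch held 1 Sp1 match and none to the other motifs. With the searched bases after the start included, Cox7a2l had another Sp1 match.

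Promoters of the members were searched as a feature that the choice of members did not use. NRF-1, GABP (of the ETS family), YY1 and Sp1 are transcription factors known to act on nuclear genes of mitochondrial proteins. The motifs searched on both strands were the NRF-1 consensus, CCGGAAG for ETS, AAGATGGC for YY1 and GGGCGG for Sp1, and a base could belong to matches of several motifs. Windows ran from 250 bases before to 50 bases after each RefSeq start and were found for 57 of the 70 subunits. An NRF-1 match was present in 14 of 57 subunit genes (24.6%), 12.0% of genes in the brightest 25%, 11.8% of detected genes and 5.19% of all genes with a window. ETS matches were present in 28.1%, 23.5%, 20.8% and 9.93% in the same order, and YY1 matches in 17.5%, 6.91%, 5.58% and 3.19%. Sp1 ran the other way, with 38.6% of subunit genes, 71.1% of the brightest 25%, 69.4% of detected genes and 38.2% of all genes.

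**Figure D4:**
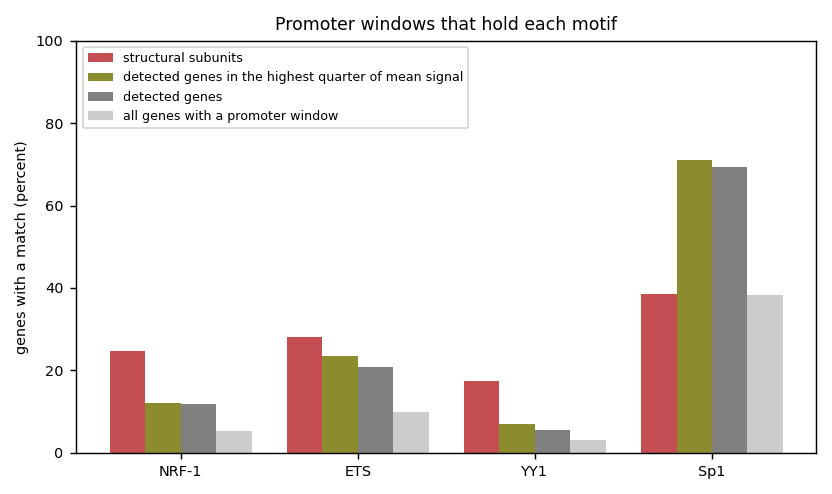
Percent of genes (vertical axis) whose promoter window holds each motif, for structural subunits, detected genes in the brightest 25%, detected genes and all genes with a window. Subunits show higher bars than the brightest 25% for NRF-1 (24.6% and 12.0%) and YY1 (17.5% and 6.91%) and a lower bar for Sp1 (38.6% and 71.1%).

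The differences of subunits with and without a motif overlapped for all 4 motifs. The 13 detected subunits with an NRF-1 match had a median difference of 0.07 and ranged from -0.43 to 0.30, and the 40 without had a median of 0.02 and ranged from -0.30 to 0.34. Those with an ETS match had a median of 0.01 (15 genes) and those without 0.04 (38 genes). The widest gap between medians was that of YY1, with 0.07 and a range of -0.15 to 0.28 in the 10 subunits with a match, and 0.00 and a range of -0.43 to 0.34 in the 43 without. The value of -0.43 in these ranges is that of Sdhd, whose direction was fixed by its detection in CON only. For Sp1 the medians were 0.02 (21 genes) with a match and 0.04 (32 genes) without. Of the factors, Nrf1 itself read 8.80 in DKO and 9.06 in CON, and Gabpa, the DNA-binding part of GABP, 5.81 in DKO and 5.93 in CON.

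Genes that support the chain were read from lists of related pathways. Regulators of mitochondrial biogenesis had 14 detected genes, 10 higher and 4 lower, with a median of 0.07 and 0 at 1.5-fold. Twnk, the mitochondrial helicase, differed by 0.51, Gabpb1, the partner of Gabpa, by 0.50 with its other probe at -0.58, and Tfam, which packages mitochondrial DNA, by -0.33. Mitochondrial ribosomal proteins had 35 higher and 33 lower of 68, with a median of 0.01, and Mrpl4 and Mrpl42 were highest at 0.53 and 0.44. The citric acid cycle list had 6 higher and 6 lower of 12, with a median of 0.00, Fh1 (fumarase) at 0.40 and Idh3g at -0.35 with its other probe at -0.08. Pyruvate dehydrogenase and pyruvate import had 3 higher and 3 lower of 6, with a median of 0.03, Mpc2 at 0.41 with its other probe at -0.02, and Pdha1 at -0.23.

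Carriers of the inner and outer membrane were the list furthest below 0, with 6 of 8 detected genes lower and a median of -0.23. The outer membrane channel genes Vdac1, Vdac2 and Vdac3 differed by -0.30, -0.40 and -0.42, and Slc25a5, an ADP/ATP carrier, by -0.16. In the same list Slc25a3, which brings phosphate to ATP synthase, read 10.75 in DKO and 9.98 in CON, a difference of 0.77, but its second probe gave 0.07. Slc25a20, the carnitine carrier, differed by -0.45 with its other probe at -0.01. Under median scaling the list was at -0.34 with 6 of 8 lower. That scaling also moved the median of all detected genes, from -0.02 to -0.13, so the list and all genes moved down together.

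Genes of protein import into mitochondria lay above 0, with 12 of 14 higher and a median of 0.16, which became 7 of 14 and 0.025 under median scaling. Tomm40, the import pore, differed by 0.67, but was not above background in CON, and the receptor gene Tomm70a differed by -0.48. Glycolysis had 3 higher and 11 lower of 14, with a median of -0.12 and -0.25 under median scaling. The glucose transporter gene Slc2a1 was its highest member at 0.56 and Tpi1, triosephosphate isomerase, its lowest at -0.39, with other probes at -0.59 and -0.05. Pfkp, counted as lower at -0.12, had another probe at 0.77. Fatty acid oxidation had 6 higher and 5 lower of 11, with a median of 0.02, Acads at -0.70 with its other probe at 0.08, and Acadvl at 0.24.

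The smaller lists were close to 0. Genes of complexes III and V outside the rule had 6 higher and 2 lower of 8, with a median of 0.08, Uqcc1 at 0.33 and Cyc1 at 0.26. Their ATP synthase inhibitor gene Atpif1 differed by 0.06. Other complex IV assembly factors had 4 higher and 1 lower of 5, with a median of 0.06, Coa6 at 0.19 and Coa5 at -0.39. Mitochondrial superoxide and peroxide enzymes had 3 higher and 3 lower of 6, with a median of -0.01, Prdx5 at 0.37 and Txn2 at -0.22. Under median scaling the medians of the citric acid cycle (-0.125), mitochondrial ribosomal (-0.116), fatty acid oxidation (-0.099), pyruvate (-0.070), complex IV assembly (-0.068) and biogenesis (-0.037) lists were below 0, and that of all detected genes, -0.02 in the main values, was -0.13. Among genes of these lists detected on both arrays, Slc25a3 was the only one at least 1.5-fold higher and Acads the only one at least 1.5-fold lower, each by its brighter probe. Some dimmer detected probes passed 1.5-fold where the brightest did not. Lower ones were of Acaa2 (-1.08), Txnrd2 (-0.87), Surf1 (-0.62) and Tpi1 (-0.59). Higher ones were of Pfkp (0.77), Atpaf2 (0.71), Mrps26 (0.66) and Mrpl3 (0.63).

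**Figure D5:**
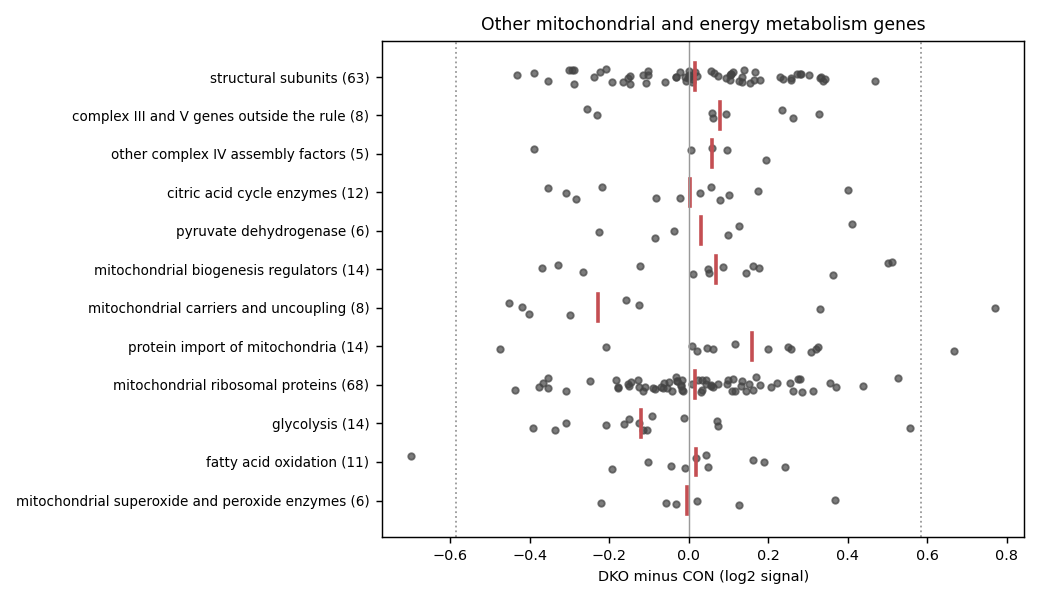
DKO minus CON difference (horizontal axis, log2 signal) of each detected gene in the structural subunits and in 11 lists of related pathways, with the number of genes in brackets and red lines at the medians. Dotted lines mark 1.5-fold, and list medians run from -0.23 for carriers to 0.16 for protein import.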

How the data were processed

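RNA combined from 3 mice per group was run on 1 array each, and 79 member symbols were read from 25697 probes. The authors deposited raw signal intensity and a detection p-value per probe, and a table of intensity normalized on a linear scale by a method not given in the sources used. GenomeStudio 2011.1 is named per the submitters' processing notes. Columns were assigned to DKO and CON per the file headers. The raw intensity was background-corrected (limma 3.58.1, R 4.3.3, normexp by detection p-values, offset 16), quantile-normalized and put on the log2 scale, and the steps were tested on simulated data. A bound sets a dim signal at the higher of its own value and the lowest detected signal of its array (log2 5.38 on DKO and 5.28 on CON). Probes were renamed through a RefSeq table of GRCm38.p6, 16938 through the gene identifier, 7420 through an accession, 465 and 553 through a current or an older symbol, while 321 kept the array's name. Cross-hybridization with related genes or pseudogenes was not examined. Members and lists were chosen with earlier results of these data known. Named genes are the 3 highest and lowest members of each larger complex and of the assembly factors, all of complex II, Cycs, members past 1.5-fold, tissue forms with their partners, and the 2 largest differences of each list. One member that this rule takes is not reported here. Further genes were named for their role after their values were seen. No test was run with 1 array per group.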

Additional observations from a re-analysis of the deposited data

How the results depend on the processing

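With 1 array per group no precision beyond the spread between probes could be given, and dim probes limit Sdhd, Cycs, Cox6a2 and Cox11. Of 123 alternative medians and counts, 116 moved by less than 0.245 divided by the square root of the number of genes (medians) or by at most 1.5 times (counts). These include the 25 higher and 38 lower subunits under median scaling, where the majority turned, against 35 and 26 in the main values. Under that scaling 35.6% of all detected genes were higher, against 47.1% in the main values. By measured values 0 subunits reached 1.5-fold under any alternative. Median scaling moved the medians of complex I to -0.065, complex V to -0.075, all subunits to -0.070 and the assembly factors to -0.001, and put those of complexes III and IV at -0.070 and -0.013. The median of complex II, -0.354 in the main values, was -0.463 under median scaling, -0.228 with a larger background offset, -0.166 in the authors' deposited table, -0.113 with no background step and -0.011 with detection required on both arrays. Of 320 alternative values of named members 7 moved beyond 0.245, all of Cox11 (as low as 0.181), Cox6a2 (0.122) or Sdhd (-0.113), and 0 of the 36 members followed changed sign. Under median scaling 10 other subunits and Cox18 did. Naming members by current symbol and setting dim values to their bound were chosen after seeing the data. No paired analysis was possible because each group has 1 array.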

Other observations

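The array lists 18 more genes under older names whose current symbols meet the rule, and 14 of them were detected. The complex I assembly factor genes Ndufaf3 and Ndufaf4 had the largest positive differences among these, while Ndufaf7 and Ndufaf5 lay nearer 0. Ndufaf3 read 6.08 in DKO and 5.39 in CON, 1.62-fold higher, with a probe close to background in CON. Ndufaf4 read 9.05 in DKO and 8.53 in CON, 1.43-fold higher, and Ndufaf7 differed by 0.23 and Ndufaf5 by -0.05. Cox19, a copper-related factor of complex IV, was 1.27-fold higher, and Cox20, which handles its COX2 subunit, 1.27-fold lower. The 5 detected genes among them that the subunit lists used here name lay between -0.27 for Cox6b2 and 0.14 for Ndufv3. Of these, Uqcr10, Ndufa12 and Ndufa13 lay within 0.05 of 0. Atp5mpl and Atp5md, small ATP synthase subunits that those lists lack, differed by 0.20 and -0.23, and Atp5md was not above background in DKO.

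Complex I genes were also grouped by arm after their values were seen, so the grouping supports nothing by itself. Of 5 detected genes of the arm that takes electrons from NADH (Ndufv1, Ndufv2, Ndufs4, Ndufs6 and Ndufa2), 4 were lower, with a median of -0.15. Ndufv3 and Ndufa12 of the same arm, listed under older names, were not counted and differed by 0.14 and 0.04. Of 9 Ndufb genes, whose products sit in the membrane arm, 7 were higher, with a median of 0.18. Their probes were dimmer, with a median signal of 7.66, against 11.77 for the arm that takes electrons from NADH. The part of brightness in this contrast was not tested. Over all detected genes 52.6% were lower and 47.1% higher.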
